A study of Mus musculus with 24 samples.

Results

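The genes described here encode the chains of mouse collagens. They were taken from the deposited table as all protein-coding rows whose symbol is Col, a number, the letter a and a number. That rule gave 44 genes of the 32561 rows, among 18498 protein-coding rows. They were sorted by structure into 8 fibrillar chains, 8 basement membrane chains, 7 cartilage chains and 21 other chains, with Col2a1, Col11a1 and Col11a2 (fibrillar in structure) counted under cartilage.

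Collagens are triple helices of such chains, and which chains combine sets where the protein goes. Fibrillar types I and III carry the tensile load of the arterial wall, type IV forms the sheet under endothelium and around smooth muscle cells, and type VI forms beaded filaments between fibrils and cells. Type II with types IX, X and XI belongs to cartilage, and type XVII is a transmembrane collagen of keratinocyte hemidesmosomes.

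Polyadenylated RNA came from 24 aortas, 4 in each of 6 groups, of congenic 129S1/SvlmJ mice 44 to 53 days old. Bmp2+/+ males, Bmp2+/+ females and males homozygous for the Bmp2 allele ∆UCS were each either Kl/Kl, homozygous for the mutated Klotho allele and labelled as having renal disease, or controls with healthy kidneys. One control, Bmp2+/+ male replicate 1, was Klotho+/+, and the other controls were Klotho+/Kl. All groups came from heterozygous crosses and were fed moistened chow after weaning. Whether an aorta sample pooled animals is not given in the sources used here, so p-values measure the spread between these samples. The study compared renal failure with health, males with females, and mutated with intact Bmp2. No Cre or transgene is named in the labels.

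In 2 of 24 libraries, labelled Kl/Kl male replicate 1 (Bmp2+/+) and Kl/Kl female replicate 2, levels of Xist and of Ddx3y (transcribed from the X and Y chromosomes) were those of the opposite sex to the label. Both are called doubted libraries here. Results are given over the 22 other libraries and then over all 24 as labelled. Each library held an estimated 20593000 to 61109000 reads. All libraries held the smooth muscle markers Myh11, Acta2, Tagln and Cnn1 and the endothelial markers Pecam1 and Cdh5, the lowest with 1174 reads, for Cdh5. Mitochondrial genes took 40.2% to 61.2% of the deposited TPM total, so TPM was rescaled by median-of-ratios size factors (0.645 to 1.601) and is called rescaled TPM below. The deposited scaling adds a shift of the median of all tested genes, to log2 0.36 for the mean of the 3 Kl/Kl comparisons against 0.04 after rescaling. It also turns the genes called for that mean from 1258 higher and 1364 lower into 3005 higher and 399 lower.

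Promoter windows from RefSeq (GRCm38.p6) are shown for 3 chains on which the results turn. Col24a1 is the chain that rose in Kl/Kl aortas, and Col1a2 and Col3a1 are 2 of the 3 most abundant chains, which varied together. Each run holds 220 bases before the annotated start and 30 bases from it on, on the plus strand, and capitals mark the motif matches named after them. The windows are chr3:145292252-145292501 for Col24a1, chr6:4505398-4505647 for Col1a2 and chr1:45311318-45311567 for Col3a1.
Col24a1: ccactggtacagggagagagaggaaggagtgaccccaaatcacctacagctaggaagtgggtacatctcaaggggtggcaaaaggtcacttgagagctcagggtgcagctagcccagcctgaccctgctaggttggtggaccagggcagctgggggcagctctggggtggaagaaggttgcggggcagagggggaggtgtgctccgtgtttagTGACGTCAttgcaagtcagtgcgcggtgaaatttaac
Col1a2: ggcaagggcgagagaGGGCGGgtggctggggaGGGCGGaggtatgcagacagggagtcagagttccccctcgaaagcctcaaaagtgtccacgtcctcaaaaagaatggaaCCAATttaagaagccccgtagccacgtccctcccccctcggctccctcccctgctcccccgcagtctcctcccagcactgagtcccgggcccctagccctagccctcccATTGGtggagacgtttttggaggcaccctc
Col3a1: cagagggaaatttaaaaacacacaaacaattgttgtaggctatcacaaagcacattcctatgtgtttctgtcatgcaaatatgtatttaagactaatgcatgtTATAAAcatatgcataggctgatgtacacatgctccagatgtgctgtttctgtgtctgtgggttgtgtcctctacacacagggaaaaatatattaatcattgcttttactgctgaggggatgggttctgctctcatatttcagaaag

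Of 5 motifs searched on both strands, the matches shown do not overlap. In windows of 300 bases, the cyclic AMP response element TGACGTCA occurred in 1.79% of 32851 promoters and in 1 of 38 promoters of collagen chains, that of Col24a1, where it begins 7 bases before the start. The GC box, searched as GGGCGG, occurred in 35.7% of all promoters and in 23 of the 38, including Col1a2, and the CCAAT box in 37.4% and in 13 of the 38, also including Col1a2. CCAAT matches of Col1a2 begin at −109 on the forward strand and at 1 on the reverse strand, counted from the annotated start. The TATA box, searched as TATAAA, occurred in 13.6% of all and in 5 of the 38, among them Col3a1. In Col3a1 the match begins at −117 from the annotated start. The core of RUNX sites, searched as TGTGGT, occurred in 16.8% of all and in 3 of the 38, none of them shown here. Promoters were found for 35 of the 44 genes. A match is a run of letters, not a measured binding site.

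The type I and III chains made up most of the collagen RNA. Col3a1, Col1a2 and Col1a1 took 57.3% of all estimated reads in collagen chains. Their levels were 89.6, 62.8 and 63.5 RPKM (depth-scaled reads per kilobase of exon, median over the 22 kept libraries), with library ranges that overlapped one another. Next came Col6a1 at 33.0, Col4a1 at 32.1 and Col4a2 at 29.1 on the same scale, again with overlapping ranges. The lowest of the 44 was Col22a1 at 0.0329, with 0 to 51 estimated reads per library. Together the 44 chains took 0.208% to 0.718% of nuclear reads in the 22 libraries. Among Bmp2+/+ males the share averaged 0.374% ± 0.0404 (SD, n = 4) without and 0.370% ± 0.236 (SD, n = 3) with Kl/Kl. Female controls averaged 0.317% ± 0.0593 (SD, n = 4) and female Kl/Kl aortas 0.411% ± 0.125 (SD, n = 3), and ∆UCS males 0.535% ± 0.151 and 0.416% ± 0.213 (SD, n = 4 each). The control and Kl/Kl ranges overlapped in all 3 strata. Once the 2 doubted libraries were included, the Kl/Kl means were 0.340% ± 0.201 in males and 0.496% ± 0.199 in females (SD, n = 4 each), and the ranges overlapped as well.

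Of the 44 chains, 33 reached a deposited TPM of at least 0.05 in at least 4 libraries and entered the limma fit over 24272 genes. They were 7 fibrillar, 7 basement membrane, 6 cartilage and 13 other chains. None of the 33 passed an adjusted p of 0.05 (limma, Benjamini-Hochberg over all tested genes) for Kl/Kl against control in Bmp2+/+ males, where 1.09% of all tested genes did, in females (2.32%), in ∆UCS males (0.808%), or in the mean of the 3 strata (10.8%). By direction, higher and lower, these backgrounds were 0.943% and 0.144% in males, 1.64% and 0.688% for the female stratum, 0.618% and 0.19% for ∆UCS males, and 5.18% and 5.62% for the mean. At an unadjusted p under 0.05 there were 0, 1, 2 and 1 chains in the same order. With all 24 libraries as labelled the count was also 0 of 33 in each, where 0%, 0%, 0% and 5.11% of all tested genes were called (in the mean 2.49% higher and 2.62% lower), and 0, 1, 2 and 1 chains had an unadjusted p under 0.05. The shares of all tested genes at the unadjusted threshold are not given here, so the unadjusted counts are no result about collagens. In bulk tissue, fewer cells of a type and less RNA per cell cannot be told apart.

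For the mean of the 3 strata, 26 of the 33 chains lay below 0 and 7 above, with a median log2 difference of −0.24 beside 0.04 for all tested genes. All 7 basement membrane chains lay below 0 (median −0.42), as did 12 of 13 other chains (median −0.25) and 5 of 7 fibrillar chains (median −0.28), while 4 of 6 cartilage chains lay above 0 (median 0.26). Chains moved together between libraries of a group (median r of 0.56 over all pairs), so these signs are not independent. Over all 24 libraries 23 of the 33 lay below 0, and with the deposited scaling 12 of 33, where the median of the chains was 0.08 beside 0.36 for all tested genes. The median of the chains was below that of all tested genes under both scalings. A scaling shifts all genes of a library alike, so the second scaling is no separate check of this. The sign of the chains depended on the scaling. The 95% intervals of single chains were wide. That of Col1a1 ran from −0.95 to 0.24 and that of Col4a1 from −0.88 to 0.01.

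**Figure D1:**
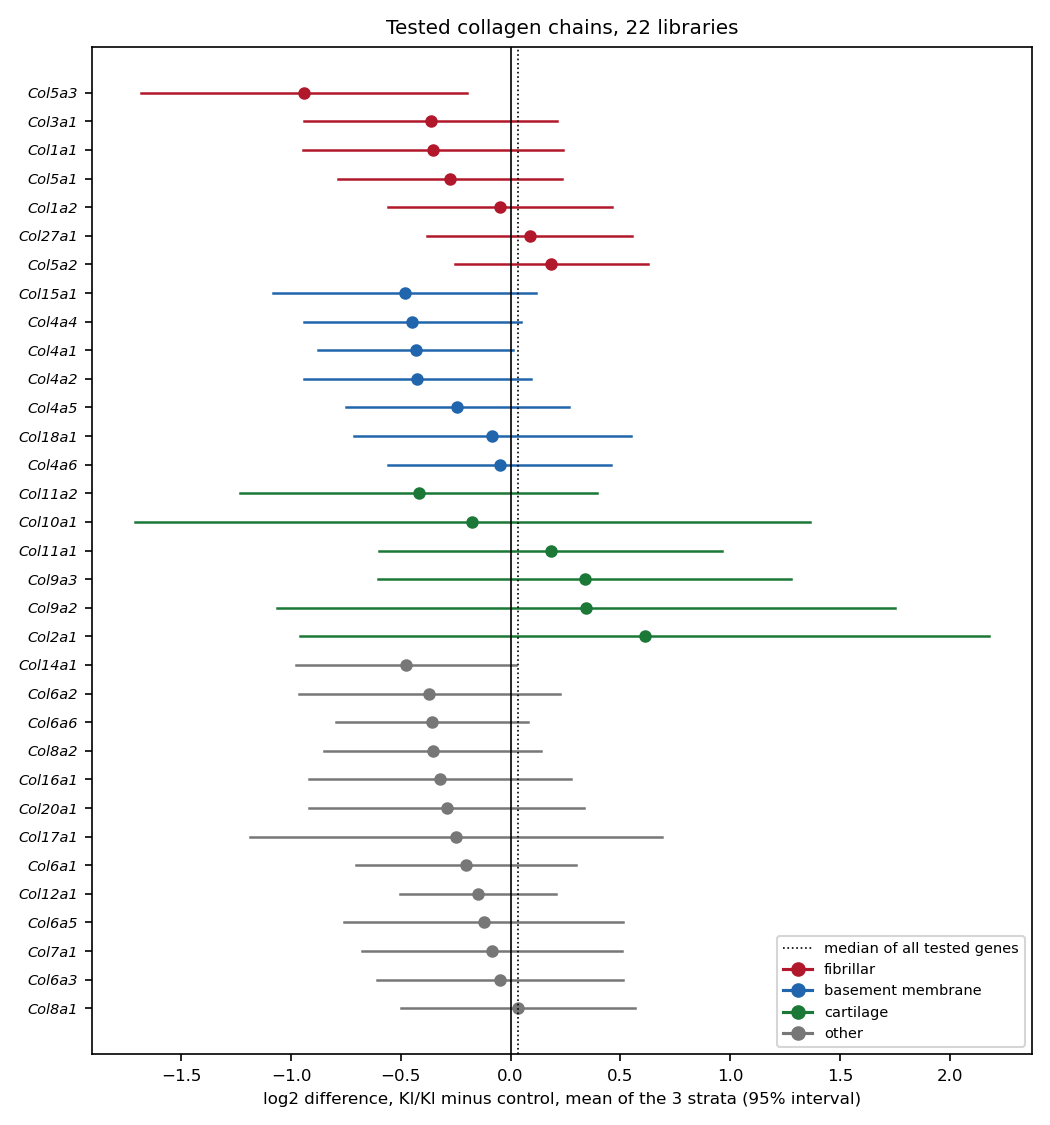
Log2 difference of each of the 33 tested collagen chains, Kl/Kl minus control, as the mean of the 3 strata in 22 libraries, with points for estimates, lines for 95% intervals from limma and colours for the 4 classes. Of the 33 points 26 lie left of 0, and the interval of the fibrillar chain Col5a3 lies wholly below 0 although its adjusted p is 0.0953.

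The chains of type I and type III collagen, which form the thick and thin fibrils of the media and adventitia, differed more among Kl/Kl libraries than among controls. Col1a1 (ENSMUSG00000001506, mm39 chromosome 11, 94827050 to 94843869, plus strand) had 20.7, 14.9, 22.5 and 19.9 rescaled TPM in replicates 1 to 4 of Bmp2+/+ control males and 9.66, 32.1, 12.4 and 8.28 in Kl/Kl males, the first of these from the doubted library. Female controls gave 10.6, 16.7, 12.9 and 19.0 and female Kl/Kl 25.0, 41.0, 13.1 and 15.9, the second from the doubted library. In ∆UCS males the controls gave 31.6, 19.5, 34.6 and 44.2 and Kl/Kl 7.07, 24.03, 11.9 and 45.8. The groups overlapped in every stratum. Single Kl/Kl libraries were the highest of their stratum in all 3, and others the lowest in both male strata. Differences on the log2 scale were −0.49 (SE 0.50), 0.26 (SE 0.50) and −0.84 (SE 0.46) in males, females and ∆UCS males, with adjusted p of 0.713, 0.836 and 0.43 (limma).

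Col1a2 (ENSMUSG00000029661, mm39 chromosome 6, 4504814 to 4541545, plus strand), the other chain of type I, gave 14.2, 12.1, 17.4 and 17.6 rescaled TPM in control males and 9.78 (doubted library), 21.8, 16.6 and 12.2 in Kl/Kl males. Female values were 14.4, 13.3, 10.9 and 16.5 in controls and 19.3, 29.997 (doubted library), 12.6 and 19.7 in Kl/Kl. The ∆UCS controls lay at 24.6, 16.5, 24.9 and 26.7 and the ∆UCS Kl/Kl males at 7.60, 16.4, 10.6 and 49.1. In ∆UCS males, 3 Kl/Kl libraries were below all controls and replicate 4 was above all of them. The log2 difference there was −0.51 (SE 0.40, adjusted p = 0.60 in limma), and without that replicate −1.05 (SE 0.26, adjusted p = 0.0494), so 1 library decided this call. In Bmp2+/+ males and females it was 0.06 (SE 0.43) and 0.30 (SE 0.43).

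Col3a1 (ENSMUSG00000026043, mm39 chromosome 1, 45350698 to 45388867, plus strand), the chain of type III, stood at 22.4, 16.1, 18.05 and 27.0 rescaled TPM in control males and at 10.6 (doubted library), 28.1, 10.6 and 8.28 in Kl/Kl males. In females the values were 14.1, 17.1, 13.6 and 17.8 against 23.7, 37.3 (doubted library), 16.8 and 19.5. In ∆UCS males they were 26.8, 16.6, 28.6 and 37.9 against 7.17, 20.2, 9.26 and 41.6. The groups overlapped in each stratum, with the same Kl/Kl libraries high as for Col1a1. Differences on the log2 scale were −0.67 (SE 0.49), 0.35 (SE 0.48) and −0.78 (SE 0.45), with adjusted p of 0.605, 0.763 and 0.454 (limma). Whether the Klotho effect differed between the sexes was tested directly for Col3a1, and the difference was 1.02 (95% interval −0.43 to 2.46, adjusted p = 1 in limma).

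**Figure D2:**
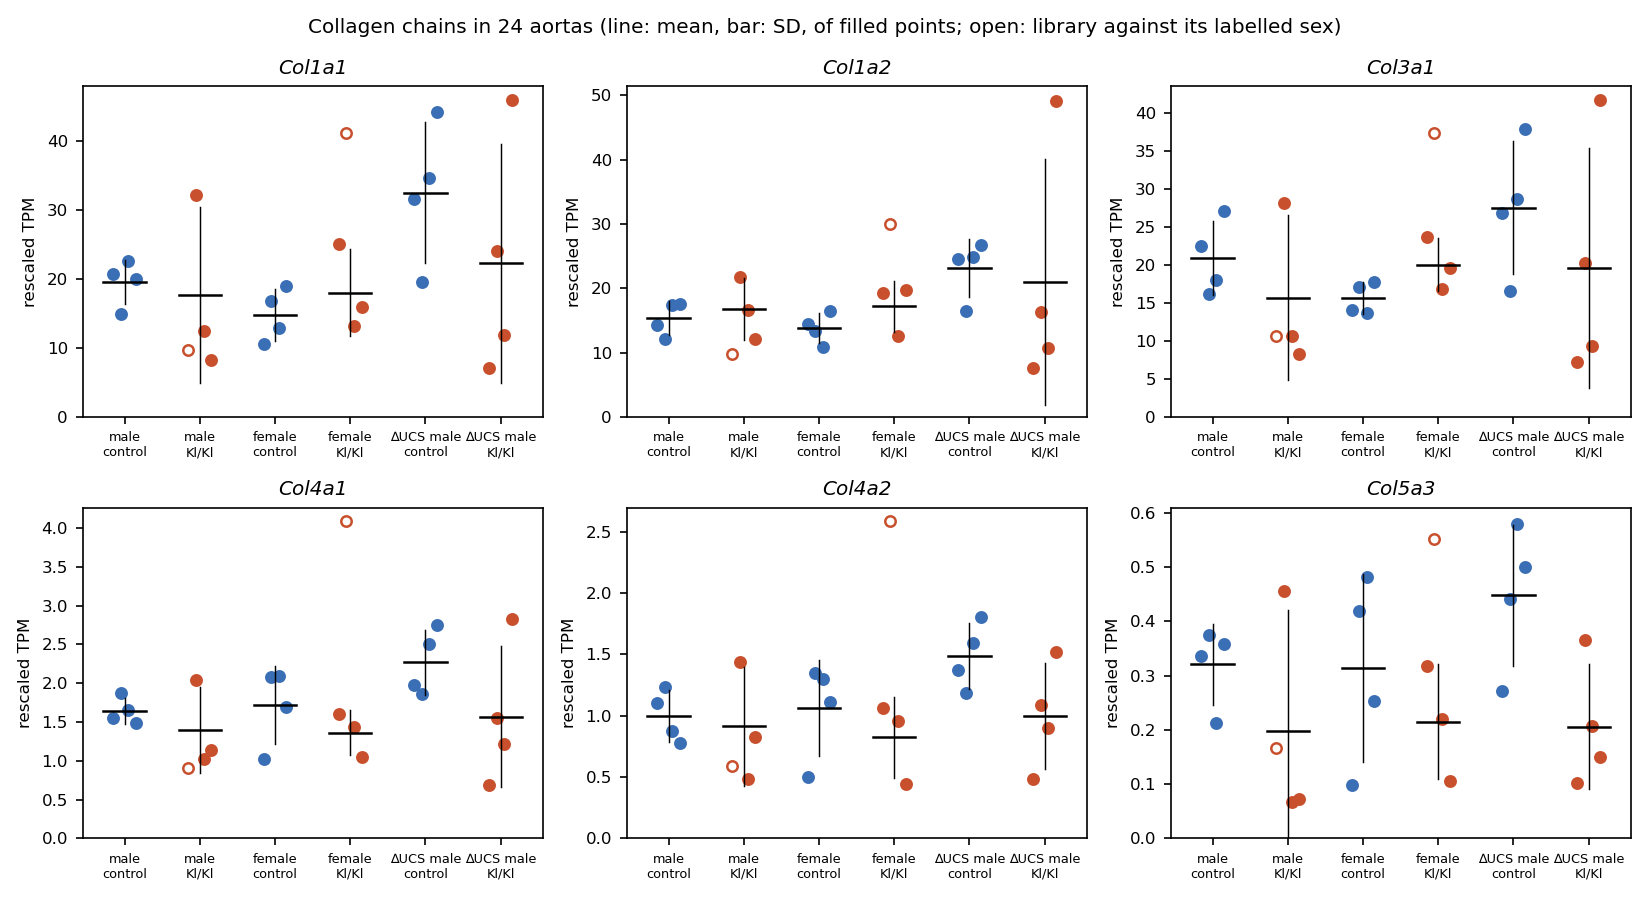
Rescaled TPM of 6 collagen chains in each of the 24 aortas (linear axes from 0), by group, with lines for the mean and bars for the SD of the 22 kept libraries (cut at 0 where they reach below) and open circles for the 2 libraries against their labelled sex. Kl/Kl points spread more widely than control points in both male strata for the 3 type I and III chains, and every Kl/Kl group overlaps its controls.

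Of the minor fibrillar chains, Col5a3 had the lowest adjusted p of the 33. It encodes a chain of type V collagen, which regulates fibril diameter, and lies on mm39 chromosome 9, 20681346 to 20726364, minus strand (ENSMUSG00000004098). Its values were 0.336, 0.375, 0.212 and 0.358 rescaled TPM in control males and 0.166 (doubted library), 0.455, 0.0663 and 0.0727 in Kl/Kl males. In females they were 0.0974, 0.420, 0.482 and 0.253 in controls and 0.318, 0.552 (doubted library), 0.221 and 0.106 in Kl/Kl. In ∆UCS males they were 0.272, 0.441, 0.579 and 0.499 in controls and 0.102, 0.366, 0.206 and 0.15 in Kl/Kl. Of the ∆UCS Kl/Kl libraries 3 lay below every control, and only replicate 2 did not. The log2 difference was −1.21 (SE 0.63), −0.43 (SE 0.62) and −1.18 (SE 0.58) in the 3 strata and −0.94 (SE 0.35, adjusted p = 0.0953 in limma) in their mean. It passed the threshold without female control replicate 1 (−1.09, adjusted p = 0.0363) or without male Kl/Kl replicate 2 (−1.21, adjusted p = 0.0128). Using all 24, the mean was −0.78 (SE 0.34, adjusted p = 0.19), and with the deposited scaling −0.60 (adjusted p = 0.374).

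Col5a2, another type V chain, was the 1 chain of the 33 tested whose kept female groups did not overlap, at 0.505, 0.702, 0.622 and 0.743 rescaled TPM in controls and 1.18, 0.920 and 0.755 in Kl/Kl. The doubted library gave 1.39. The log2 difference was 0.55 (SE 0.37, adjusted p = 0.493 in limma), so it did not pass, and it was named after its values were seen. The share of all tested genes whose kept female groups did not overlap was not counted, so this is no result about collagens.

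The basement membrane chains had negative median log2 differences in all 3 strata of the 22 libraries, at −0.24, −0.24 and −0.62 beside −0.04, 0.01 and 0.09 for all tested genes, and no chain passed the test. The female sign turned, to 0.15 over all 24 libraries and to 0.28 with the deposited scaling, each with all 7 chains above 0. Col4a1 and Col4a2 encode the chains of the common type IV network and start 21 bases apart in RefSeq, on opposite strands of chromosome 8. Col4a1 gave 1.55, 1.87, 1.65 and 1.49 rescaled TPM in control males against 0.909 (doubted library), 2.04, 1.02 and 1.14 in Kl/Kl males. In females it gave 1.03, 2.08, 2.10 and 1.69 against 1.60, 4.09 (doubted library), 1.44 and 1.05, and in ∆UCS males 1.98, 1.86, 2.50 and 2.75 against 0.687, 1.55, 1.21 and 2.83. In both male strata all Kl/Kl libraries but 1 lay below every control. The log2 differences were −0.30 (SE 0.38), −0.30 (SE 0.37) and −0.69 (SE 0.34), and the mean −0.43 (SE 0.21, adjusted p = 0.20 in limma).

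Col4a2 followed Col4a1, with 1.11, 1.24, 0.871 and 0.781 rescaled TPM in control males and 0.590 (doubted library), 1.44, 0.483 and 0.825 in Kl/Kl males. Female controls held 0.499, 1.35, 1.30 and 1.11 and female Kl/Kl 1.07, 2.59 (doubted library), 0.959 and 0.445. The ∆UCS controls held 1.37, 1.19, 1.59 and 1.81 and the ∆UCS Kl/Kl males 0.482, 1.09, 0.903 and 1.52. The mean log2 difference was −0.42 (SE 0.25, adjusted p = 0.292 in limma). The doubted library labelled female Kl/Kl replicate 2 had the highest value of all 24 for both chains. With it and the other doubted library the female difference of Col4a1 was 0.10 (SE 0.40) in place of −0.30, so its sign in females rested on that library.

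Col15a1 and Col4a4 had the largest mean differences among basement membrane chains. Col15a1, a multiplexin that links basement membranes to the matrix, ran from 0.289 to 0.448 rescaled TPM in control males and from 0.116 to 0.620 in the 3 kept Kl/Kl males, where replicate 2 was the highest and the other 2 lay below all controls. Its ranges were 0.206 to 0.472 and 0.193 to 0.432 in females, and 0.362 to 0.682 and 0.185 to 0.757 in ∆UCS males. The mean log2 difference of Col15a1 was −0.48 (SE 0.29, adjusted p = 0.301 in limma). Col4a4, a chain of the type IV network of glomerular basement membrane, ran from 0.0334 to 0.0529 in control males and from 0.0145 to 0.0540 in Kl/Kl males. In females it ran from 0.0269 to 0.0593 and from 0.0265 to 0.0391, and in ∆UCS males from 0.0483 to 0.0886 and from 0.015 to 0.0790. Its mean difference was −0.45 (SE 0.23, adjusted p = 0.238 in limma).

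Among the other chains, Col14a1 and Col6a2 had the largest mean differences by the rule for naming. Col14a1, a collagen that sits on fibril surfaces, gave 0.399, 0.345, 0.254 and 0.240 rescaled TPM in control males and 0.237 (doubted library), 0.486, 0.184 and 0.123 in Kl/Kl males. Female values were 0.254, 0.406, 0.477 and 0.424 against 0.409, 0.705 (doubted library), 0.244 and 0.341. The ∆UCS values were 0.521, 0.298, 0.552 and 0.547 against 0.143, 0.391, 0.231 and 0.505. All groups overlapped, and the mean log2 difference was −0.48 (SE 0.24, adjusted p = 0.215 in limma). Col6a2, a chain of the beaded filaments, ran from 2.51 to 4.24 in control males and from 0.910 to 5.46 in Kl/Kl males, from 1.95 to 4.04 and 1.98 to 4.07 in females, and from 3.31 to 6.38 and 1.79 to 5.63 in ∆UCS males. Its mean difference was −0.37 (SE 0.28, adjusted p = 0.441 in limma).

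Of the tested chains, the cartilage chains Col2a1, Col10a1 and Col9a2 varied most between libraries of 1 group. The pooled SD within groups was 1.90 on the log2 scale for Col2a1, 1.77 for Col10a1 and 1.62 for Col9a2, beside a median of 0.57 over all tested genes. Col2a1, the chain of type II collagen, gave 0.328, 0.0340, 0.0952 and 0.0227 rescaled TPM in control males and 0.470 (doubted library), 0.523, 0.0167 and 0.0365 in Kl/Kl males. In females the values were 0.0796, 0.0950, 0.0787 and 0.0954 against 0.621, 0.433 (doubted library), 0.0581 and 0.225. In ∆UCS males they were 0.00168, 0.233, 0.544 and 1.46 against 0.101, 1.73, 0.346 and 0.462. Female controls lay close together, and every other group spread widely. The log2 differences were −0.28 (SE 1.34), 1.16 (SE 1.32) and 0.95 (SE 1.22), with a mean of 0.61 (95% interval −0.96 to 2.18, adjusted p = 0.652 in limma). Over all 24 the male difference was 0.66 (SE 1.26), so its sign turned with the doubted library.

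Col11a2, a chain of type XI collagen, gave 0.313, 0.153, 0.290 and 0.0894 rescaled TPM in control males and 0.573 (doubted library), 0.456, 0.0484 and 0.0575 in Kl/Kl males. Females gave 0.139, 0.210, 0.385 and 0.215 against 0.482, 0.459 (doubted library), 0.0979 and 0.114, and ∆UCS males 0.128, 0.324, 0.403 and 0.723 against 0.249, 0.744, 0.248 and 0.244. Within groups its r with Col2a1 was 0.86 over 22 libraries, and the groups overlapped. Its mean log2 difference was −0.42 (SE 0.39, adjusted p = 0.535 in limma).

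These chains moved with markers of chondrocytes, the cells of cartilage. Over 22 libraries, with each value taken as its deviation from its group mean, Pearson's r was 0.95 between Col2a1 and Col9a3, 0.87 between Col2a1 and the cartilage proteoglycan gene Acan, and 0.97 between Col10a1 and Acan. These are descriptions over libraries that share depth and tissue composition. The summed level of 12 chondrocyte markers ran from 8.03 to 17.0 rescaled TPM in control males and 12.6 to 67.4 in Kl/Kl males, from 11.8 to 20.1 and 20.7 to 44.7 in females, and from 11.9 to 35.0 and 13.2 to 76.2 in ∆UCS males. In the mean of the 3 strata 1 of its 11 tested members, the matrix gene Comp, rose (log2 1.17, SE 0.36, adjusted p = 0.0463 in limma), where 5.18% of all tested genes were called higher. None of the 12 markers was at 0 reads in all libraries of a group. The part of cartilage or of chondrocyte-like cells in these values was not tested.

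**Figure D3:**
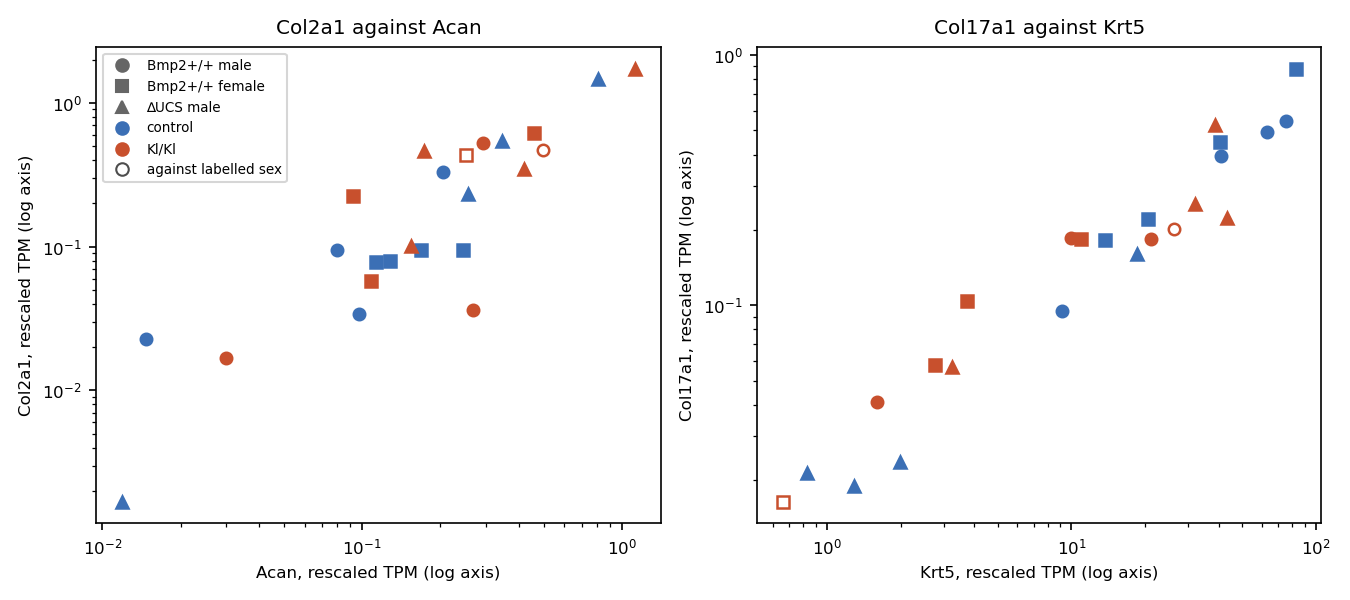
Rescaled TPM of Col2a1 against Acan (left) and of Col17a1 against Krt5 (right) in each of the 24 aortas, on log axes, with colour for Klotho genotype, shape for sex and Bmp2 genotype, and open symbols for the 2 libraries against their labelled sex. Both chains track the marker within groups, with r = 0.87 and r = 0.95 over 22 libraries.

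Col17a1, the hemidesmosome collagen of stratified epithelium, had the largest differences of any tested chain, and they ran in opposite directions. It gave 0.493, 0.394, 0.0950 and 0.545 rescaled TPM in Bmp2+/+ control males and 0.202 (doubted library), 0.186, 0.0409 and 0.185 in Kl/Kl males. Females gave 0.882, 0.45, 0.182 and 0.222 against 0.183, 0.0164 (doubted library), 0.104 and 0.0576, and ∆UCS males 0.0235, 0.0214, 0.0189 and 0.161 against 0.223, 0.526, 0.253 and 0.0564. Kl/Kl values were mostly the lower in Bmp2+/+ aortas and mostly the higher in ∆UCS aortas. The log2 differences were −1.23 (SE 0.80), −1.69 (SE 0.79) and 2.18 (SE 0.73), with adjusted p of 0.551, 0.297 and 0.189 (limma). The test of the difference between the male strata gave 3.41 (95% interval 1.14 to 5.69, adjusted p = 0.668 in limma), where 0.00412% of all tested genes were called. Col17a1 and its values were chosen after they were seen.

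The basal keratin gene Krt5 moved with Col17a1 (r = 0.95 within groups, 22 libraries), and ran from 0.827 to 82.7 rescaled TPM over the 22 libraries. The suprabasal keratins Krt4 and Krt13, chosen after their values were seen, reached 1192 and 2293 rescaled TPM in female control replicate 1, where Col17a1 was highest, and were 0.387 and 0.601 in ∆UCS control replicate 2. The part of epithelium in the Col17a1 values was not tested.

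Chains of the same or a partner collagen were correlated to different degrees. Within groups over 22 libraries, Pearson's r was 0.96 for Col1a1 with Col3a1, 0.88 for Col1a1 with Col1a2, 0.91 for Col4a1 with Col4a2, 0.92 for Col4a5 with Col4a6 and 0.98 for Col6a1 with Col6a2. It was lower, at 0.71, for Col5a1 with Col5a3, at 0.74 for Col8a1 with Col8a2 and at 0.74 for Col6a1 with Col6a3. The median r over all 528 pairs of tested chains was 0.56. It was 0.70 among fibrillar, 0.76 among basement membrane, 0.90 among cartilage and 0.53 among other chains, and 0.50 between fibrillar and cartilage chains. The 5 tested genes most like Col1a1 across 22 libraries were Col3a1, Col5a1, the procollagen peptidase gene Adamts2, the carboxypeptidase gene Cpz and the procollagen enhancer gene Pcolce (r from 0.94 to 0.89), beside a median of −0.03 over all genes. Those most like Col2a1 were Col9a3, Col9a2, Meltf, Col11a1 and Otor (r from 0.96 to 0.87). All these values share libraries, depth and tissue make-up, and they carry no test.

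The 11 chains below the filter were measured with estimated reads, in a limma voom fit of 22166 genes that included all 44 chains. They were Col13a1, Col19a1, Col22a1, Col23a1, Col24a1, Col25a1, Col26a1, Col28a1, Col4a3, Col6a4 and Col9a1. In that fit 3 of 44 chains passed an adjusted p of 0.05 in the mean of the 3 strata, 1 higher and 2 lower, where 14.6% of all tested genes did (7.2% higher and 7.35% lower). All 3 were chains below the filter. In females 1 chain passed (3.18% of all genes), in ∆UCS males 1 (1.19%) and in Bmp2+/+ males 0 (1.52%). These shares of chains lie near or below the background, so they are no result about collagens as a group. Over all 24 libraries 2 of 44 passed in the mean (7.45% of all genes) and 0 in each stratum (0%). The 3 genes were named after their values were seen.

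The chain that rose was Col24a1, a minor fibrillar chain known from developing bone and cornea, where it accompanies type I collagen. The gene spans 259.5 kilobases (ENSMUSG00000028197, mm39 chromosome 3, 144998233 to 145257767, plus strand). Estimated reads were 16, 14, 14 and 10 in Bmp2+/+ control males and 11 (doubted library), 114, 18 and 29 in Kl/Kl males. Female controls held 14, 14, 11 and 14 reads and female Kl/Kl 164, 7 (doubted library), 88 and 71. In ∆UCS males the controls held 14, 11, 7 and 13 and Kl/Kl 44, 130, 65 and 16. The kept Kl/Kl libraries lay above the controls of their own stratum in RPM (depth-scaled reads) in all 3 strata, and 9 of 10 lay above the highest of all 12 controls, 0.791 RPM. The exception was ∆UCS Kl/Kl replicate 4, at 0.691. Both doubted libraries, at 0.482 and 0.270 RPM, lay at the level of controls. How many of all tested genes separate in this way was not counted.

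Means of Col24a1 were 0.486 ± 0.0379 (SD, n = 4) and 1.68 ± 1.32 (SD, n = 3) RPM in control and Kl/Kl males. They were 0.640 ± 0.107 (SD, n = 4) and 2.82 ± 0.236 (SD, n = 3) in females, and 0.331 ± 0.0924 and 1.77 ± 1.24 (SD, n = 4 each) in ∆UCS males. In the voom fit this was 3.83-fold higher in the mean of the 3 strata (95% interval 2.49 to 5.87, log2 1.94, SE 0.29, adjusted p = 0.000217). By stratum the log2 difference was 2.11 (SE 0.51, adjusted p = 0.0289) in females, 2.21 (SE 0.49, adjusted p = 0.0302) in ∆UCS males and 1.49 (SE 0.51, adjusted p = 0.199) in Bmp2+/+ males. The strata were not shown to differ from each other: the difference between sexes was 0.62 (95% interval −0.88 to 2.13) and that between Bmp2 genotypes 0.72 (95% interval −0.77 to 2.21).

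The rise of Col24a1 in the mean passed in all 22 voom fits that left out 1 library each (log2 1.74 to 2.10). For all 24 as labelled it was 1.60 (SE 0.41, adjusted p = 0.0205), and in the fit of TPM without a filter 0.47 (adjusted p = 0.00261), a scale whose pseudocount of 0.01 exceeds most values of this gene. The female call was kept without female control replicate 1 and lost without each of the other 6 kept libraries of its comparison (adjusted p up to 0.0940, log2 2.04 to 2.20). The ∆UCS call was kept without Kl/Kl replicate 4 and lost without each of the other 7 libraries of its comparison (adjusted p up to 0.115, log2 1.79 to 2.53). Over all 24 neither passed (adjusted p = 0.477 and 0.202).

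**Figure D4:**
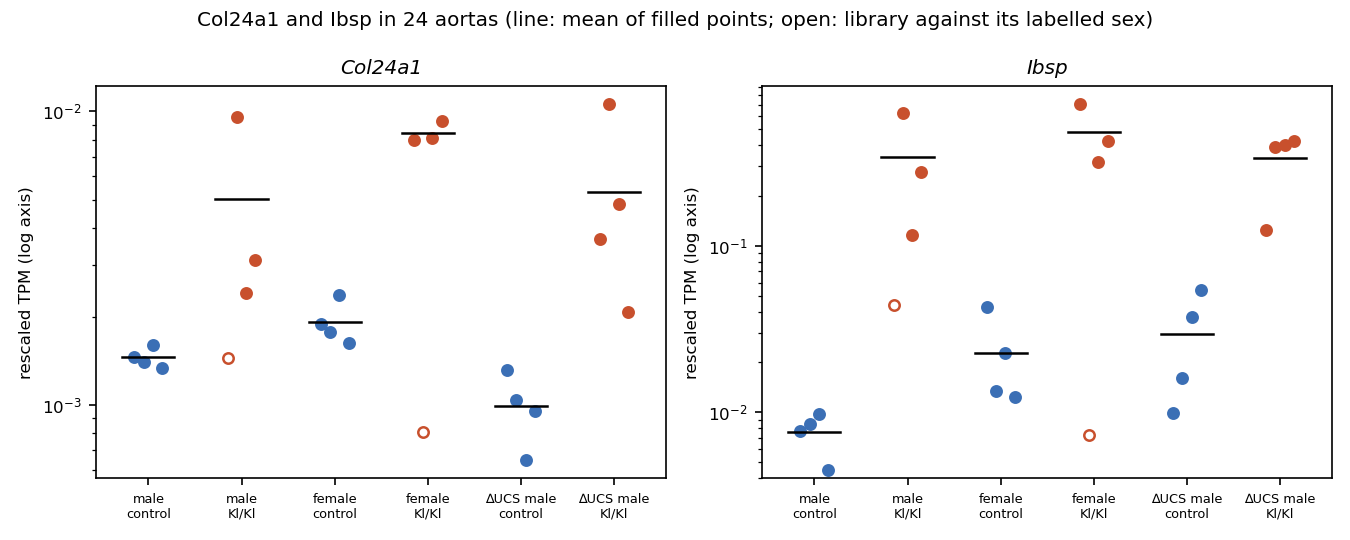
Rescaled TPM of Col24a1 and of the bone sialoprotein gene Ibsp in each of the 24 aortas on log axes, by group, with lines for the means of the 22 kept libraries and open circles for the 2 libraries against their labelled sex. Filled Kl/Kl points lie above the controls of their own stratum for both genes, and 1 control with 0 reads of Ibsp is drawn at the lower edge.

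Several genes of bone mineral rose in the same comparison as Col24a1. In RPM, Spp1 (osteopontin), Ibsp (bone sialoprotein) and Dmp1 (a matrix protein of osteocytes) were higher in 10 of 10 kept Kl/Kl libraries than in any of 12 controls. In the doubted libraries none of the 3 was above the highest control. Other bone genes separated less: RPM lay above all controls in 8 of 10 kept Kl/Kl libraries for Bglap (osteocalcin), in 7 for Sp7 and in 4 for Runx2. Sp7 and Runx2 are osteoblast transcription factors. For these genes, too, the share of all genes that separate in this way was not counted. Of 7 tested osteoblast and mineral genes 5 rose in the mean of the 3 strata and 0 fell (5.18% and 5.62% of all tested genes), among them Spp1 (log2 7.64, SE 0.39), Bglap (4.14, SE 0.74) and Dmp1 (3.96, SE 0.52), with adjusted p of 8.3e-10, 0.00135 and 7.42e-05 (limma). Alpl, the alkaline phosphatase gene, had −0.59 (SE 0.22, adjusted p = 0.0886 in limma). Among the 10 kept Kl/Kl libraries, r with Col24a1 was 0.60 for Ibsp, 0.44 for Runx2, 0.43 for Sp7, 0.42 for Spp1, 0.12 for Dmp1 and −0.23 for Bglap, without a test. Col1a1, the main collagen of bone, did not pass in any comparison. The part of bone-like cells in the Col24a1 value was not tested.

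The 2 chains that fell in the mean were Col19a1 and Col28a1. Col19a1, a fibril-associated collagen, had 21, 15, 10 and 8 estimated reads in control males and 7 (doubted library), 6, 13 and 5 in Kl/Kl males. It had 9, 16, 8 and 19 against 17, 26 (doubted library), 7 and 8 in females, and 25, 17, 25 and 29 against 21, 22, 5 and 11 in ∆UCS males. The log2 difference in the mean was −0.96 (SE 0.29, adjusted p = 0.0338 in limma voom), it passed in 11 of 22 fits that left out a library, and with all 24 libraries it was −0.78 (adjusted p = 0.111).

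Col28a1, found around peripheral glia, had 155, 246, 122 and 217 reads in control males and 77 (doubted library), 170, 48 and 66 in Kl/Kl males. In RPM it ran from 4.11 to 6.46 in female controls and from 2.89 to 4.40 in the kept female Kl/Kl libraries. Reads in ∆UCS males were 82, 317, 228 and 225 against 46, 205, 197 and 77, and the groups overlapped. The mean difference was −0.85 (SE 0.28, adjusted p = 0.0475 in limma voom). It passed in 6 of 22 fits that left out a library, and with all 24 libraries it was −0.84 (adjusted p = 0.0462). Of 8 Schwann cell markers 1 fell, S100b (log2 −1.60, SE 0.27, adjusted p = 0.000799 in limma), and 0 rose, while with the deposited scaling 1 fell and 1 rose. The part of nerve in the Col28a1 value was not tested.

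Between Bmp2 genotypes no chain passed the test. For ∆UCS against Bmp2+/+ in control males 0 of 33 chains and 0% of all tested genes were called in limma, with 3 chains at an unadjusted p under 0.05, and in Kl/Kl males 0 of 33 and 0%, with 0 chains. Over all 24 the counts were 0 of 33 and 0% in both, with 2 and 0 chains at an unadjusted p under 0.05. The unadjusted counts stand without the share of all tested genes and are no result about collagens. On estimated reads the count was 0 of 44 in each (limma voom). In controls 29 of 33 chains lay above 0, with a median log2 difference of 0.40 beside −0.04 for all tested genes, and all 20 fibrillar, basement membrane and cartilage chains did. In Kl/Kl males 28 of 33 lay above 0, with a median of 0.24 beside 0.05. With the deposited scaling 21 of 33 lay above 0 in controls, among them 5 of 7 fibrillar and 4 of 6 cartilage chains, and the median was 0.18 beside −0.26. All ∆UCS libraries belong to 1 of 2 library sets, so these values rest on the set term of the fit. Chains also moved together between libraries of a group, so their signs are not independent.

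In control males Col18a1, the basement membrane chain that yields endostatin, was higher in every ∆UCS library (0.971 to 1.45 rescaled TPM) than in any Bmp2+/+ library (0.2999 to 0.786), a log2 difference of 1.32 (SE 0.56, adjusted p = 0.940 in limma). Col7a1, the anchoring fibril chain, was lower in every ∆UCS library (0.0634 to 0.112) than in any Bmp2+/+ library (0.138 to 0.232), a difference of −1.29 (SE 0.52, adjusted p = 0.940 in limma). Col18a1 and Col7a1 fall outside the rule for naming and were chosen after their values were seen. The share of all tested genes whose groups separate in this way was not counted. For Col17a1 it was −2.28 (SE 0.83, adjusted p = 0.940 in limma), with overlapping groups. Type I and III chains differed by 0.34 (Col1a1, 95% interval −0.77 to 1.44), 0.43 (Col1a2, −0.53 to 1.38) and 0.17 (Col3a1, −0.91 to 1.24). The difference of the Klotho effect between Bmp2 genotypes called 0 of 33 chains (2 at an unadjusted p under 0.05) and that between sexes 0 of 33 (0 at an unadjusted p under 0.05), where 0.00412% and 0% of all tested genes were called in limma. For the unadjusted counts the share of all tested genes is again not given.

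**Figure D5:**
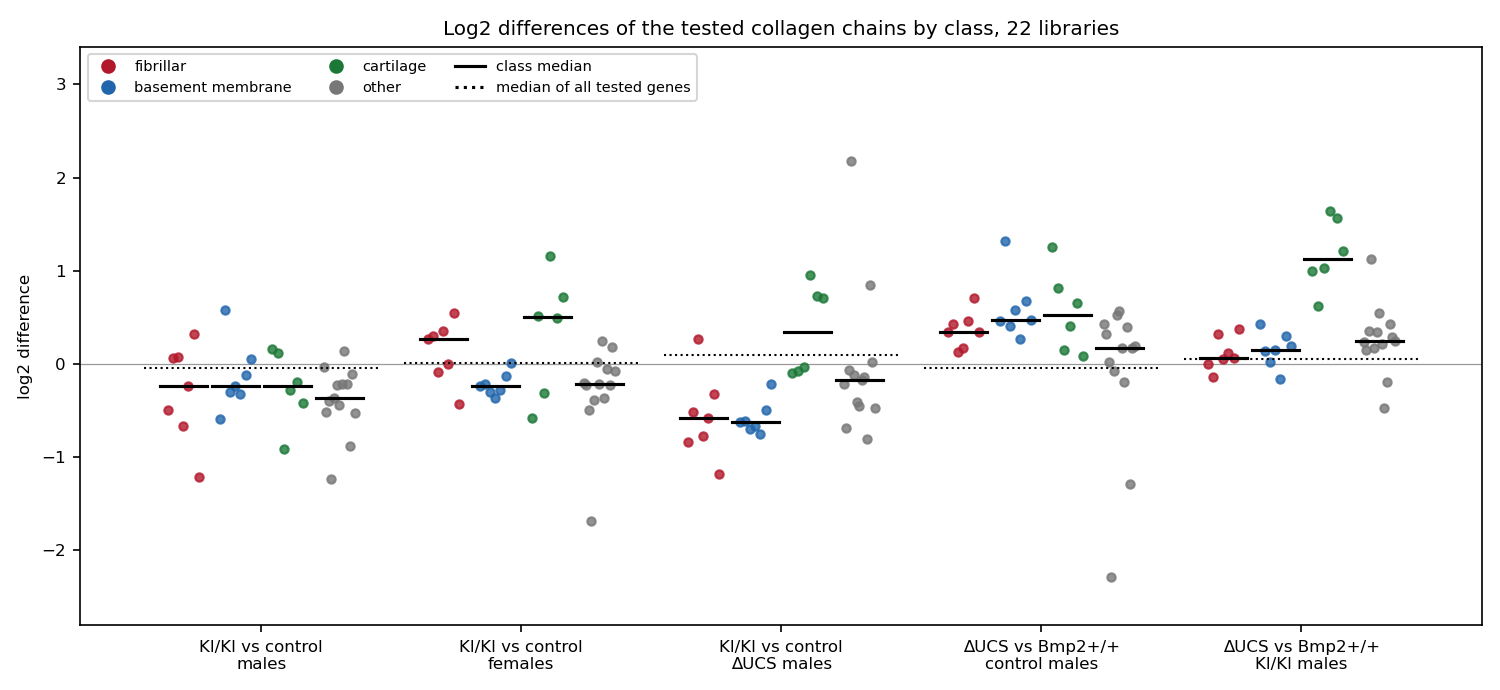
Log2 differences of the 33 tested chains in 5 comparisons over 22 libraries, 1 point per chain, coloured by class, with solid lines for class medians and dotted lines for the median of all tested genes. Basement membrane medians lie at −0.24, −0.24 and −0.62 for Kl/Kl against control (the female one turns to 0.15 over all 24 libraries and 0.28 with the deposited scaling), and all fibrillar, basement membrane and cartilage chains lie above 0 for ∆UCS against Bmp2+/+ in control males (with the deposited scaling 5 of 7, 7 of 7 and 4 of 6).

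Other genes of the collagen pathway are given from lists chosen for their role, and each count in the mean of the 3 strata stands beside 5.18% higher and 5.62% lower among all tested genes. Of 20 tested genes for hydroxylation, folding and secretion of collagen, 1 rose and 1 fell in the mean (median log2 −0.03), a share near that background. Serpinh1, the collagen chaperone HSP47, fell (log2 −1.011, SE 0.29, adjusted p = 0.0326 in limma), a call lost with the deposited scaling, and P4ha3, a prolyl hydroxylase subunit, rose by 0.85 (SE 0.23, adjusted p = 0.0220). Of 10 tested genes for procollagen processing and cross-linking only the lysyl oxidase gene Lox rose (0.77, SE 0.22, adjusted p = 0.0356 in limma) and 0 fell. In all 24 libraries 0 of these genes passed in limma.

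Several genes that degrade or take up collagen rose. Of 11 tested, 7 rose and 0 fell (median 0.93), among them the collagen-cleaving cathepsin K gene Ctsk (3.02, SE 0.19), Mmp13 (2.45, SE 0.30) and Mmp8 (2.25, SE 0.33), each a collagenase gene, with adjusted p of 6.81e-09, 2.71e-05 and 0.000219 (limma). As labelled, 4 of 11 rose. Of 8 tested collagen receptor genes 3 rose and 0 fell, the inhibitory receptor gene Lair1 (2.39, SE 0.26), Cd44 (1.35, SE 0.20) and the integrin gene Itga2 (0.67, SE 0.20), with adjusted p of 6.11e-06, 0.000255 and 0.0364 (limma). As labelled, 2 of 8 rose. Of 15 tested proteoglycan and matrix partner genes 5 rose and 2 fell, among them the fibronectin gene Fn1 (1.16, SE 0.20, adjusted p = 0.000906 in limma) and the tenascin gene Tnxb (−0.79, SE 0.25, adjusted p = 0.0496). As labelled, 2 of 15 rose and 0 fell, and with the deposited scaling 6 rose and 0 fell.

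Macrophage markers rose in the same comparison as the degradation genes. All 12 tested macrophage markers rose in the mean, among them Mpeg1 (3.59), Cd68 (3.49) and Trem2 (3.16), and the scavenger receptor gene Mrc1 stands in both lists. Their summed level ran from 472 to 611 rescaled TPM in Kl/Kl males against 50.6 to 222 in controls, from 484 to 775 against 62.4 to 113 in females, and from 258 to 441 against 62.0 to 119 in ∆UCS males. The doubted libraries held 145 (male) and 72.5 (female). The part of macrophages in the degradation genes was not tested.

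Few markers of fibroblasts, smooth muscle and endothelium passed the test. Of 10 fibroblast markers 1 rose (Lum, 0.75, SE 0.24, adjusted p = 0.0491 in limma) and 0 fell, and of 10 smooth muscle markers 0 passed (median −0.32). Of 10 endothelial markers 2 fell, Tie1 (−0.79, SE 0.21, adjusted p = 0.0199 in limma) and Cdh5 (−0.76, SE 0.19, adjusted p = 0.0172), while with the deposited scaling 0 fell and 2 others rose. Of 11 adipocyte markers 5 fell, among them Elovl3 (−2.68), Otop1 (−2.32) and Ucp1 (−2.11). The others did not pass, among them Adipoq (−0.27), Fabp4 (−0.33) and Cfd (0.29). Of 12 airway epithelium markers 3 rose, Scgb3a1 (2.65), Reg3g (2.64) and Bpifa1 (1.88). None of 10 cardiomyocyte, 8 skeletal muscle or 6 mesothelial markers passed in limma. The part of tissue attached to the aorta in the collagen values was not tested.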

How the data were processed

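Values are TPM as deposited by the authors. The submitters' processing notes name Partek and the mm39 build. No aligner, annotation, strand setting or rule for shared reads is named: each is not given in the sources used here. Libraries were directional and from polyA RNA, per the labels. The deposited TPM is per genomic span, introns included, and each column sums to 482073, so levels between genes are given as estimated reads per kilobase of exon (GENCODE M21). Reads were estimated from the lowest values (0 reads plus 0.0001 read), and 77.4% of 171291 low values came out within 0.05 of a whole number. One TPM of a gene spanning 100 kilobases stood for 2295 to 5652 reads. All 24 sample columns were used, leaving 0 unused.

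TPM was divided by size factors over 15619 nuclear genes. Then limma 3.58.1 (R 4.3.3, trend) was fitted to log2(rescaled TPM + 0.01), a scale that understates changes of low genes, with 6 group means and the library set inferred from the spelling of library names. Genes needed a TPM of 0.05 in 4 libraries. P-values are two-sided, adjusted by Benjamini-Hochberg over all tested genes, with a threshold of 0.05. The voom fit used genes with at least 10 reads in 4 libraries. The limma fit of rescaled TPM was also run on simulated counts with known changes. Genes with few reads, such as Col24a1, were not changed there, and the voom fit was not run on them.

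Members, gene lists and tests were chosen with earlier results of these data known. Named chains are Col1a1, Col1a2, Col3a1, Col4a1 and Col4a2, any chain past the threshold, and the 2 tested chains with the largest mean difference in each class. Of other lists up to 3 genes past the threshold are named. Voom fits with all 24 libraries and with each library left out were added after seeing the data. Other settings are given with the closing section.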

Additional observations from a re-analysis of the deposited data

Results flagged for a closer look

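Within-group spread was checked for the 12 chains named by rule in groups with 4 kept libraries, 48 groups in all, by the gap between an extreme library and its nearest neighbour over the range of the group. Chance flags about 5% of groups, and 3 of 48 were found. Col1a2 in ∆UCS control replicate 2 was 16.46 rescaled TPM, and the other 3 controls lay between 24.6 and 26.7. In the same library Col14a1 was 0.298, and the other 3 lay between 0.521 and 0.552. Col11a2 in ∆UCS Kl/Kl replicate 2 was 0.7442, and the other 3 lay between 0.244 and 0.249. That library also had the highest Col2a1 of all 24, at 1.73 rescaled TPM, and the highest Acan, at 1.12.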

How the results depend on the processing

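Depth limits the low chains most: Col24a1 rests on 7 to 164 reads per library. Among the 33 tested chains 0 were called in every comparison with a pseudocount of 0.1 or 1, the deposited scaling, all 24 libraries as labelled, no library set term, the replicate block, the compared groups alone and library set 1 alone. Chains called were 1 in females, 1 in ∆UCS males and 3 in the mean on estimated reads, and 1 in females and 1 in the mean without a filter. Leaving out each library gave 0 to 1 in ∆UCS males and 0 to 1 in the mean.

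Class medians in females moved with the deposited scaling to 0.80 (fibrillar), 0.28 (basement membrane) and 0.30 (other), where the median of all genes is 0.51; the shift follows from the scaling.

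Of all 24272 genes, Kl/Kl in Bmp2+/+ males called 264, and 154 with the deposited scaling, 0 as labelled, 0 as labelled with the deposited scaling, 49 in the groups alone and 48 in set 1. Females called 564, and 0 as labelled under either scaling and 357 with the replicate block. ∆UCS males called 196, and 119 with a TPM of at least 1, 0 as labelled, 2 as labelled with the deposited scaling, 93 in the groups alone, 97 in set 1 and 97 with a pseudocount of 1. The mean called 2622, and 1240 as labelled. For ∆UCS against Bmp2+/+, controls called 0, and 13 in the groups alone, 1 in set 1 and 1 without a filter, and Kl/Kl males 0, and 3 in set 1. The Bmp2 interaction called 1, and 0 with the deposited scaling, a TPM of at least 1, as labelled (either scaling), the groups alone, voom, no filter, no set term and a pseudocount of 0.1 or 1. Leaving out each library gave 83 to 739 in males, 219 to 972 in females, 91 to 522 in ∆UCS males, 1212 to 3521 in the mean, 0 to 5 and 0 to 2 for ∆UCS in controls and Kl/Kl, and 0 to 3 and 0 to 2 for the interactions with Bmp2 and sex. The cause was not tested.

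Replicate numbers did not pair the samples: over 10 pairs of same-numbered libraries r ran from −0.291 to 0.228, 3 were over 0.1, and 3 of the libraries correlated best with their own number. Only pairing by replicate number was checked. Each female control shares its age with a female Kl/Kl library that has another replicate number and an adjacent library number. Some male control and Kl/Kl libraries do so too. Such pairs were not tested, and the main fit treats libraries as unpaired.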
